A study of Mus musculus with 14 samples.

Results

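DNA replication is run by a set of protein machines that act in a fixed order, and 46 genes for these machines and for the supply of their nucleotides were followed here in cultured skeletal cell clones of the mouse. The 46 genes were chosen by name: 9 for licensing of origins, 6 for the MCM helicase, 6 for its activation, 8 for the replicative polymerases and primase, 6 for the sliding clamp and its loader, 3 for the single-strand binding protein, 2 for joining of Okazaki fragments, 5 for deoxynucleotide supply and Uhrf1. Each matched 1 gene among the 30503 of the count table, and all 46 were among the 17358 genes that passed the filter on low counts.

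The study grew clones from single tdTomato+ cells of femur bone marrow and profiled their RNA in bulk. In all 3 groups the cells carried Fgfr3creER, a tamoxifen-dependent Cre from an artificial chromosome transgene with Fgfr3 regulatory sequence, and the R26R-tdTomato reporter, and tamoxifen was given at P21. The 5 Fgfr3-WT clones came from mice at P23 and had intact Trp53, while the Fgfr3-p53 cKO clones also carried Trp53fl/fl and came from mice at P28 (5 clones) or at 4 months (P4M, 4 clones). The Fgfr3-WT and P28 clones were at passage 8 and the P4M clones at passages 6 to 8. Each library is 1 clone, so that the p-values measure the spread between clones, and the labels do not say how many mice the clones came from. The names of the Fgfr3-WT libraries begin with the number 1303 and those of the cKO libraries with 2963. The labels do not say what these numbers stand for. No age is shared between the Fgfr3-WT and the cKO mice either. Genotype, age and this number cannot be told apart in any value against Fgfr3-WT. The paper reports that clones lacking the tumour suppressor grew faster and that more of them survived serial passaging. Equal passage numbers thus do not stand for equal time in culture. The part of culture time and clone survival in the differences was not tested.

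Before S phase, the origin recognition complex (ORC) and the loaders Cdc6 and Cdt1 place the ring-shaped MCM helicase on DNA, which is called licensing, and geminin (Gmnn) blocks Cdt1 once S phase has begun. Cdc45 and the GINS complex then turn the MCM ring into a working helicase, primase and polymerase alpha start each strand, and polymerases epsilon and delta extend the leading and lagging strands on the clamp Pcna. Many of these genes are transcribed in waves through E2F factors, which the retinoblastoma family holds back in resting cells, and p53 acts on that control through the cyclin-dependent kinase inhibitor p21 (Cdkn1a). In a bulk sample, a larger share of cells in S phase and more RNA per cell in S phase cannot be told apart.

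The deletion was visible in the counts. Trp53 lay at 55.3, 49.9, 68.1, 50.4 and 51.1 CPM in the Fgfr3-WT clones, and at 2.47, 2.84, 2.36, 2.48 and 2.18 CPM in the P28 clones and 2.08, 2.37, 1.72 and 2.22 CPM in the P4M clones. These values are normalised read counts (CPM), the counts of a gene scaled by the total of its library and by a factor from edgeR's TMM method. They are listed here and below in the order of the replicate numbers, which only name the clones. Cdkn1a was lower in the P28 clones than in Fgfr3-WT (log2 fold change -2.81 with SE 0.40 and adjusted p = 0.000223) and was not called in the P4M clones (-0.54 with SE 0.40 and adjusted p = 0.281). Total counts were 25688946 to 38958693 per Fgfr3-WT clone, 37606033 to 48648618 per P28 clone and 43757832 to 52857424 per P4M clone. The stromal markers Pdgfrb and Runx2 were counted in every clone, while Col1a2 lay at 0.0325, 0.841, 0.485, 0.796 and 4351 CPM in the Fgfr3-WT clones and between 7789 and 33242 CPM in the cKO clones. Col1a1 had medians of 7.61, 17262 and 21297 CPM in Fgfr3-WT, P28 and P4M, and Col3a1 of 133, 1011 and 19.2 CPM. Sox9 went down, with means of 143, 31.9 and 13.6 CPM in the same order. Of the 8 genes of the stromal list, 2 were called higher and 1 lower with the 2 cKO groups averaged and set against Fgfr3-WT. Of 11 haematopoietic markers 8 were in the count table, where Ptprc reached at most 0.154 CPM, and Lyz2, Cd68 and Csf1r were the 3 above 1 CPM in any clone. The 8 summed to 16.5 to 145 CPM in Fgfr3-WT, 3.47 to 22.3 CPM in P28 and 5.05 to 9.10 CPM in P4M. Lyz2 and Cd68 were called lower in both cKO groups. Csf1r, with means of 0.223, 0.779 and 0.566 CPM in the same order, was called higher in P28 and not called in P4M. Of 7 endothelial markers 6 were in the table. Cdh5 had no count in any clone, which allows at most 3 counts per library, and Kdr and Vwf were the 2 above 1 CPM in any clone, both called higher in P4M against Fgfr3-WT. The 6 summed to 1.07 to 3.78 CPM in Fgfr3-WT, 0.743 to 5.69 CPM in P28 and 7.29 to 249.6 CPM in P4M, and the part of either list in the differences below was not tested. Prrx1, a stromal transcription factor gene, lay at 789, 561, 673, 61.4 and 4.53 CPM in the P28 clones, so that replicates 4 and 5 stood below the others.

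Most of the replication genes rose in the clones that had lost p53. In edgeR's quasi-likelihood test with Benjamini-Hochberg adjustment at 0.05, with the P28 and P4M groups averaged and set against Fgfr3-WT, 41 of the 46 genes were called higher and 0 lower. Over all genes tested, 23.1% were called higher and 25.7% lower in that comparison. The median log2 fold change was 1.39 over the 46 genes and -0.05 over all genes tested, and 32 of the 46 were called higher with a log2 fold change above 1. The 5 genes that were not called were Orc5, Gins3, Rfc1, Rpa1 and Rrm2. At an unadjusted p under 0.05, 42 genes were higher and 0 lower. The share of all genes at that unadjusted threshold, here and below, was not counted. Neither DESeq2 nor limma called a member lower. Of all genes in this comparison, DESeq2 called 21.4% higher and 23.1% lower, and limma on TPM called 30.4% higher and 16.8% lower.

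Each cKO group showed the rise on its own. In the P28 clones 38 of the 46 genes were called higher and 0 lower, against 19.2% higher and 19.7% lower of all genes, with a median of 1.45 over the 46 genes and -0.02 over all genes. In the P4M clones 39 were called higher and 0 lower, against 22.3% higher and 23.6% lower of all genes, with a median of 1.42 and -0.06 respectively. At an unadjusted p under 0.05, 39 genes were higher in P28 and 42 in P4M, and 0 were lower in either. These 2 comparisons share the Fgfr3-WT clones. Every cKO clone lay above every Fgfr3-WT clone for 27 of the 46 genes, compared with 9.73% of all genes tested, and for 0 of them every cKO clone lay below. Where values are given below as without overlap, the cKO clones are set against the Fgfr3-WT clones.

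**Figure D1:**
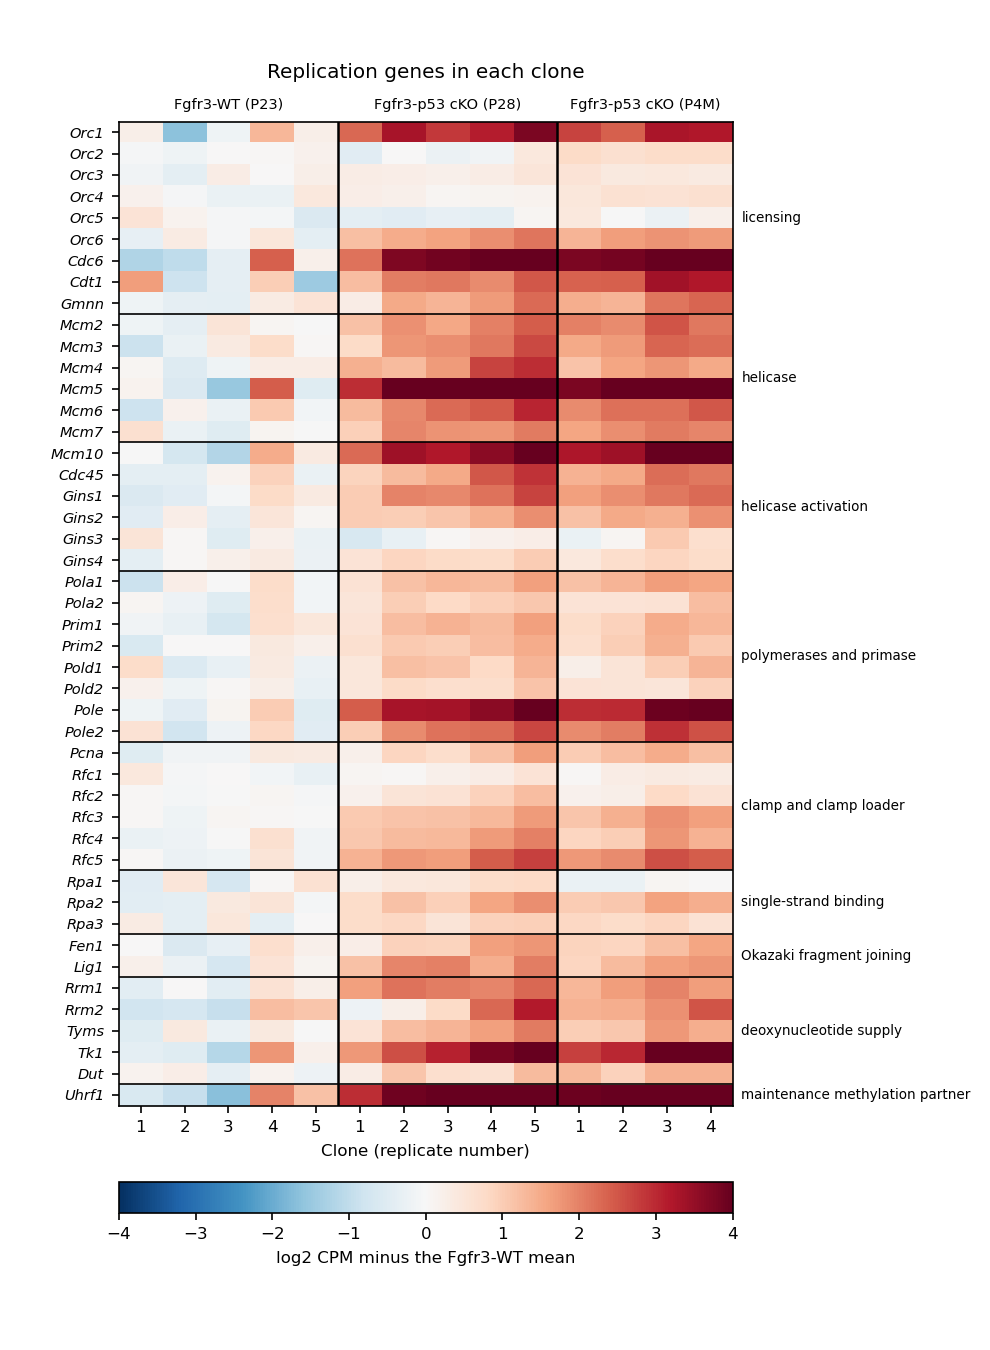
Each row is a replication gene, ordered by role, and each column a clone; colour gives the difference in log2 CPM from the average of the 5 Fgfr3-WT clones, with differences beyond 4 drawn in the darkest colour. The 9 cKO columns are red for most genes. Orc5, Gins3, Rfc1 and Rpa1, which were not called, stay pale, and so do Orc2, Orc3 and Orc4, which were called with small fold changes. Fgfr3-WT replicate 4 is the reddest of the Fgfr3-WT columns.

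The licensing genes ranged from several-fold rises to no call. Of the 9 genes, 8 were called higher and the median log2 fold change was 1.63, with a range from -0.13 to 3.40. Orc1 (ENSMUSG00000028587, chr4:108579423-108614833, plus strand), the ATPase subunit whose level changes through the cell cycle, lay at 0.553, 0.115, 0.404, 1.25 and 0.554 CPM among the Fgfr3-WT clones, 2.47, 4.95, 3.60, 4.45 and 6.99 CPM among the P28 clones and 3.30, 2.64, 4.92 and 4.64 CPM among the P4M clones. The Fgfr3-WT values rest on 3 to 44 counts per clone, and no cKO clone overlapped them (log2 fold change 2.84 with SE 0.47 and adjusted p = 0.000319). Orc6 (ENSMUSG00000031697, chr8:85299632-85308278, plus strand), the smallest ORC subunit, lay at 8.23, 12.96, 10.1, 14.4 and 7.95 CPM among the Fgfr3-WT clones, 24.3, 29.1, 31.6, 38.3 and 45.7 CPM among the P28 clones and 27.03, 33.3, 36.4 and 33.8 CPM among the P4M clones. Its cKO and Fgfr3-WT clones did not overlap either, and its log2 fold change was 1.63 with SE 0.19 and adjusted p = 3.50e-05. Orc5 (ENSMUSG00000029012, chr5:22486485-22550429, minus strand), a core ORC subunit, lay at 22.4, 16.7, 14.9, 14.4 and 10.2 CPM among the Fgfr3-WT clones, 11.5, 11.04, 12.2, 11.6 and 16.2 CPM among the P28 clones and 20.5, 14.97, 12.9 and 17.7 CPM among the P4M clones. Its 3 groups overlapped, and the log2 fold change was -0.13 with SE 0.18 and adjusted p = 0.58.

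Within the same complex, Orc2, Orc3 and Orc4 were called higher by small amounts, with log2 fold changes of 0.33 (adjusted p = 0.0466), 0.35 (adjusted p = 0.027) and 0.35 (adjusted p = 0.0259). These 3 calls were close to the threshold. The call of Orc2 was lost when any 1 of 12 clones was left out, with Fgfr3-WT replicate 5 and P28 replicate 1 as the exceptions, that of Orc3 without Fgfr3-WT replicate 1, 2 or 4 or P4M replicate 1, and that of Orc4 without Fgfr3-WT replicate 2, 3 or 4. Orc2 was also not called in the P28 clones (-0.06 with SE 0.15 and adjusted p = 0.791), where it lay at 26.5, 36.8, 30.4, 32.6 and 48.3 CPM against 34.8, 32.00, 36.8, 37.4 and 40.5 CPM in Fgfr3-WT, and was called in the P4M clones (0.72 with SE 0.15 and adjusted p = 0.00208), all of which lay above both other groups at 61.8, 57.01, 60.8 and 60.3 CPM. Of the exon bases of Orc2, 29.8% overlap the gene Nif3l1 on the other strand, and the strand setting of the counting is not given in the sources used here. The per-length scale (TPM) gives a level per transcript length, scaled to a common total. On this scale Orc1 had the lowest mean of the 6 subunits in all groups, with 0.422 ± 0.292 TPM (SD, n = 5) in Fgfr3-WT, 3.15 ± 1.14 TPM (SD, n = 5) in P28 and 2.41 ± 0.872 TPM (SD, n = 4) in P4M. Orc6 moved from 14.97 ± 2.73 TPM (SD, n = 5) in Fgfr3-WT to 58.6 ± 15.7 TPM (SD, n = 5) in P28 and 49.7 ± 5.92 TPM (SD, n = 4) in P4M, and was the most abundant ORC transcript in 7 of the 9 cKO clones, whereas Orc4 was in all 5 Fgfr3-WT clones.

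**Figure D2:**
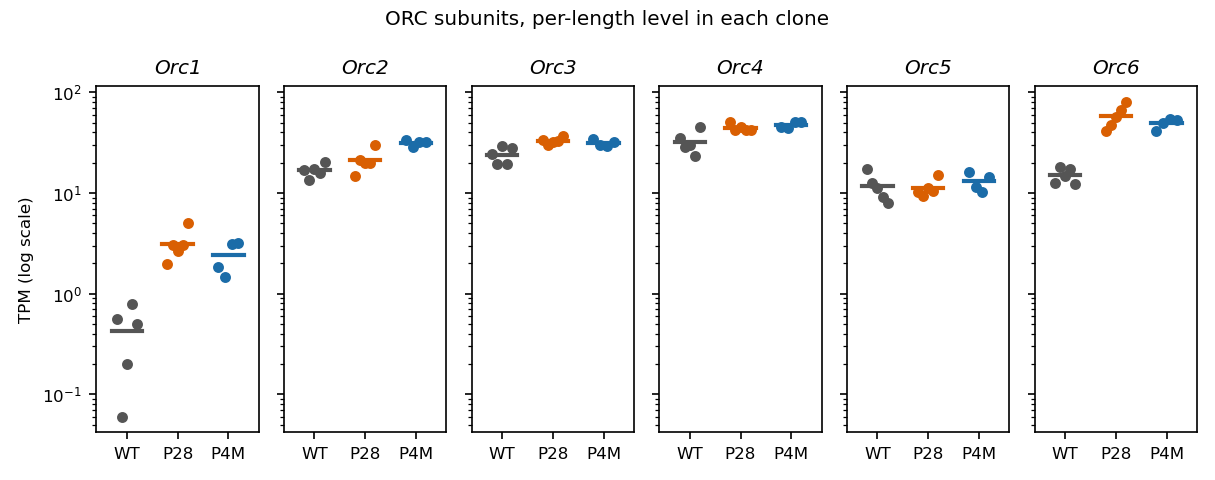
Each panel is a subunit of the origin recognition complex, each point a clone and each line the group mean, in TPM on a log scale, for Fgfr3-WT (WT) and the P28 and P4M Fgfr3-p53 cKO clones. Orc1 and Orc6 separate the cKO clones from Fgfr3-WT, and the Orc5 points overlap in all 3 groups.

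The MCM loaders also rose. Cdc6 had a log2 fold change of 3.40 with SE 0.68 and adjusted p = 0.00124 and lay below 1 CPM in 4 Fgfr3-WT clones and at 4.09 CPM in replicate 4, which was above the lowest cKO clone at 3.50 CPM. Cdt1 had a log2 fold change of 1.99 with SE 0.48 and adjusted p = 0.00433, and its Fgfr3-WT values of 27.04, 4.70, 6.51, 16.9 and 3.04 CPM overlapped the cKO range of 20.2 to 86.4 CPM through replicate 1. In the P28 clones alone Cdt1 was called at an adjusted p of 0.0285, and that call was lost without Fgfr3-WT replicate 2 or 3 or P28 replicate 5. Gmnn, the inhibitor of Cdt1, rose as well (log2 fold change 1.68 with SE 0.32 and adjusted p = 0.000867).

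The promoters of Orc1 and Orc5 are shown because of these subunits of the same complex the one was called higher and the other was not called. Both are the 250 bases before the RefSeq start site on build GRCm38.p6, 5′ to 3′ on the strand of the gene, with capitals for the E2F core (TTCCCGC or TTGGCGC or TTCGCGC), the cell cycle genes homology region or CHR (TTTGAA or TTCGAA) and the CCAAT box (CCAAT), each searched on both strands. The Orc1 stretch is chr4:108579204-108579453, plus strand, and the Orc5 stretch is chr5:22550339-22550588, minus strand.
Orc1: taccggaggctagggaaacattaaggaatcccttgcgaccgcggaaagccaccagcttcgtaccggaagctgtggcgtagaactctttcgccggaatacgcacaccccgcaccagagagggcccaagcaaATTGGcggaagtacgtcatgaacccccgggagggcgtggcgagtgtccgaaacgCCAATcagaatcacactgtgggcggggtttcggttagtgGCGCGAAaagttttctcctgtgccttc
Orc5: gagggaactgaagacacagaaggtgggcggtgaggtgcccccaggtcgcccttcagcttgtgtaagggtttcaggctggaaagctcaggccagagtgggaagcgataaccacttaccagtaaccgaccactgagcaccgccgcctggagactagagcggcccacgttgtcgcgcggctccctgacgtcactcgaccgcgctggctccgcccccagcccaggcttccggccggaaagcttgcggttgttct
The Orc1 promoter held an E2F core that starts 27 bases before the start site and a pair of CCAAT boxes at 120 and 66 bases. By GENCODE the gene begins earlier, at 108579423, so that this E2F core lies after that start. The Orc5 promoter held none of these letters in this window. A match is a match of letters and was not tested as a binding site.

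All 6 subunits of the MCM2-7 helicase, the ring that unwinds DNA at the fork, were called higher, with a median log2 fold change of 1.93 and a range from 1.77 to 3.62. Mcm2 (ENSMUSG00000002870, chr6:88883474-88898780, minus strand) lay at 24.5, 21.8, 39.6, 29.2 and 27.4 CPM among the Fgfr3-WT clones, 63.4, 99.4, 81.6, 112 and 151 CPM among the P28 clones and 113, 103, 159.9 and 121 CPM among the P4M clones. Its cKO and Fgfr3-WT clones did not overlap, and its log2 fold change was 1.98 with SE 0.22 and adjusted p = 2.07e-05. Mcm7 (ENSMUSG00000029730, chr5:138164583-138172422, minus strand) lay at 50.8, 26.9, 23.6, 35.4 and 32.7 CPM among the Fgfr3-WT clones, 63.9, 126, 115, 111 and 137 CPM among the P28 clones and 98.1, 119, 138 and 128 CPM among the P4M clones, again without overlap (log2 fold change 1.77 with SE 0.22 and adjusted p = 4.12e-05). Mcm5 (ENSMUSG00000005410, chr8:75109569-75128439, plus strand) lay at 3.90, 2.33, 1.21, 19.1 and 2.53 CPM among the Fgfr3-WT clones, 27.5, 74.8, 81.9, 80.3 and 119 CPM among the P28 clones and 49.1, 57.5, 71.97 and 90.05 CPM among the P4M clones. Here Fgfr3-WT replicate 4 stood far above the other Fgfr3-WT clones and still below the lowest cKO clone. Mcm5 had the largest fold change of the 6 subunits and also the widest error (3.62 with SE 0.65 and adjusted p = 0.00062). Mcm6 (2.12 with SE 0.34 and adjusted p = 0.000258), Mcm3 (1.87 with SE 0.32 and adjusted p = 0.000436) and Mcm4 (1.82 with SE 0.30 and adjusted p = 0.000322) lay in between. A processed pseudogene of Mcm7, Gm5487, aligned to it at 97.7% identity, and its counts over all clones were 0.13% of those of Mcm7.

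The 6 subunits form 1 ring in equal number, but their transcripts were unequal on the per-length scale. In 4 of the 5 Fgfr3-WT clones the subunit with the highest TPM exceeded the lowest by 14.1- to 28.8-fold, with Mcm7 highest and Mcm5 lowest. In Fgfr3-WT replicate 4 this ratio was 3.06. In the P28 clones it was 2.85, 5.19, 3.61, 1.65 and 1.70, and in the P4M clones 4.80, 4.39, 3.97 and 4.64. The ratio was thus smaller in the 9 cKO clones than in those 4 Fgfr3-WT clones, and replicate 4 lay inside the cKO range. Mcm7 remained the most abundant subunit in all 14 clones, while the lowest was Mcm4 in 7 of the 9 cKO clones. Mcm5 rose from 3.06 ± 3.57 TPM (SD, n = 5) in Fgfr3-WT to 52.7 ± 22.7 TPM (SD, n = 5) in P28 and 40.5 ± 11.4 TPM (SD, n = 4) in P4M.

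**Figure D3:**
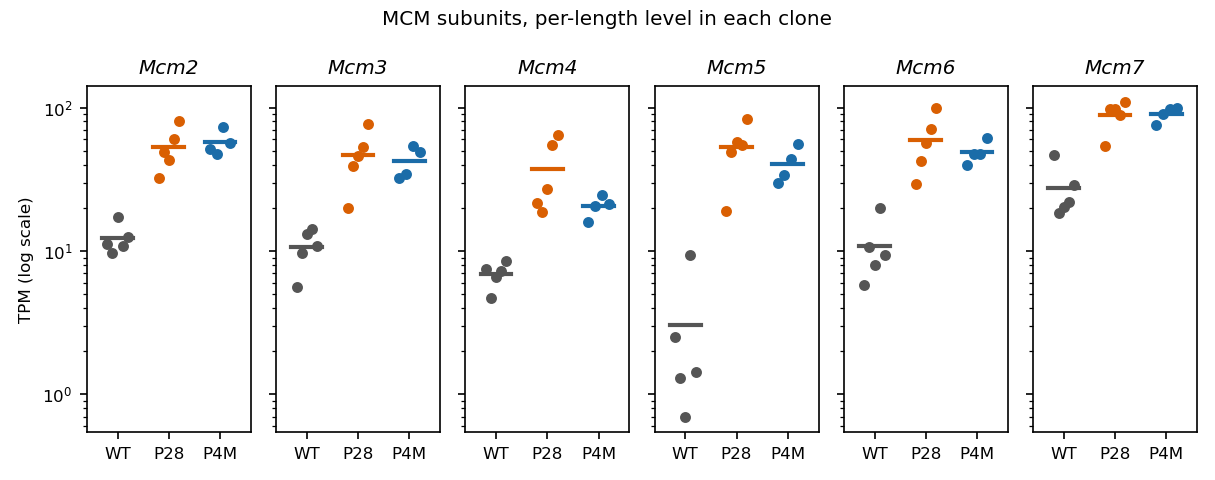
Each panel is a subunit of the MCM2-7 helicase, each point a clone and each line the group mean, in TPM on a log scale, for Fgfr3-WT (WT) and the P28 and P4M Fgfr3-p53 cKO clones. The cKO points lie above the Fgfr3-WT points in every panel, and the Mcm5 panel has the widest gap, with Fgfr3-WT replicate 4 between the other clones of its group and the cKO clones.

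The promoters of Mcm5 and Mcm6, the helicase subunits with the largest fold changes, are shown with the same capitals. They lie at chr8:75109259-75109508, plus strand, and at chr1:128359706-128359955, minus strand.
Mcm5: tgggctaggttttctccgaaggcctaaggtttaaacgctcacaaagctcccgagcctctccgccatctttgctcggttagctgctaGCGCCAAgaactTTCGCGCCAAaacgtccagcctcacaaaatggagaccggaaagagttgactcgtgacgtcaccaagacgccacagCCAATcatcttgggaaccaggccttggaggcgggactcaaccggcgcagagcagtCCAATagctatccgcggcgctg
Mcm6: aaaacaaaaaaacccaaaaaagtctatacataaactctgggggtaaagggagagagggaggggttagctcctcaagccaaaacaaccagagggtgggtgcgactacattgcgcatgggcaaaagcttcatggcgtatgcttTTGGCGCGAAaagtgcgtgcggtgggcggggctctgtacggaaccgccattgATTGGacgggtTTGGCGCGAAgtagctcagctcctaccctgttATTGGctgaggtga
Mcm5 held 3 E2F cores, 164, 152 and 149 bases before the start site, and CCAAT boxes at 77 and 22 bases. Its cores at 152 and 149 bases overlap on opposite strands within the same letters. Mcm6 held 4 E2F cores, at 109 and 106 and at 46 and 43 bases, where each pair overlaps on opposite strands within the same letters, and CCAAT boxes at 57 and 14 bases.

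Of the 6 genes that activate the helicase, 5 were called higher, with a median log2 fold change of 1.61. Mcm10 (ENSMUSG00000026669, chr2:4989714-5012791, minus strand), which helps to start the assembled helicase, lay at 1.69, 1.03, 0.728, 4.89 and 2.21 CPM among the Fgfr3-WT clones, 8.34, 18.4, 16.1, 21.4 and 29.4 CPM among the P28 clones and 16.4, 18.2, 27.9 and 33.9 CPM among the P4M clones. The cKO and Fgfr3-WT clones did not overlap, and the log2 fold change was 3.32 with SE 0.48 and adjusted p = 0.000138. Gins2 (ENSMUSG00000031821, chr8:120578633-120589304, minus strand), a subunit of the GINS complex, lay at 11.6, 18.8, 12.2, 22.04 and 16.7 CPM among the Fgfr3-WT clones, 32.4, 31.1, 34.05, 42.6 and 57.4 CPM among the P28 clones and 35.8, 45.5, 42.4 and 56.03 CPM among the P4M clones, also without overlap (log2 fold change 1.37 with SE 0.21 and adjusted p = 0.00017). Of its exon bases, 67.3% overlap Gse1 on the other strand. Gins3 (ENSMUSG00000031669, chr8:95633453-95645060, plus strand), another of the 4 GINS subunits, lay at 9.86, 7.19, 4.93, 8.05 and 5.73 CPM among the Fgfr3-WT clones, 4.41, 5.66, 7.25, 7.79 and 8.40 CPM among the P28 clones and 5.79, 7.26, 14.4 and 11.2 CPM among the P4M clones. Its groups overlapped throughout, and its log2 fold change was 0.17 with SE 0.25 and adjusted p = 0.607. The other GINS subunits had log2 fold changes of 1.96 (Gins1, adjusted p = 0.000313) and 0.71 (Gins4, adjusted p = 0.00106). Cdc45, the partner of GINS and MCM, rose by 1.85 with SE 0.38 and adjusted p = 0.00136 on the log2 scale.

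The Gins3 promoter is shown because the gene was not called although this stretch, chr8:95633309-95633558, plus strand, held all 3 kinds of motif.
Gins3: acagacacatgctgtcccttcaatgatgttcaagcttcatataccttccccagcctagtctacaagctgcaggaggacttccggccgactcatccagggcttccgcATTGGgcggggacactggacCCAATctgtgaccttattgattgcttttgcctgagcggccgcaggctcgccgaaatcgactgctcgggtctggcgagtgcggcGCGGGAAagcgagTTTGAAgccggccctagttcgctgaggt
The E2F core lay 41 bases before the RefSeq start site, the CHR 28 bases before it and the CCAAT boxes at 144 and 124 bases. By GENCODE the gene begins earlier, at 95633453, so that the E2F core and the CHR lie after that start.

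All 8 genes of the replicative polymerases and primase were called higher, and their median log2 fold change was 1.08. The catalytic subunit of polymerase epsilon, Pole (ENSMUSG00000007080, chr5:110286306-110337474, plus strand), lay at 2.83, 2.29, 3.44, 6.48 and 2.25 CPM among the Fgfr3-WT clones, 17.3, 31.8, 32.4, 39.4 and 54.6 CPM among the P28 clones and 25.3, 25.7, 49.1 and 56.3 CPM among the P4M clones. Its lowest cKO clone, at 17.3 CPM, was above its highest Fgfr3-WT clone, at 6.48 CPM, and its log2 fold change was 3.41 with SE 0.38 and adjusted p = 2.28e-05. Pole2 (ENSMUSG00000020974, chr12:69201773-69228195, minus strand), the second subunit of polymerase epsilon, lay at 2.38, 0.918, 1.37, 2.81 and 1.15 CPM among the Fgfr3-WT clones, 3.16, 5.997, 7.27, 7.65 and 10.4 CPM among the P28 clones and 5.97, 6.73, 12.3 and 9.56 CPM among the P4M clones, also without overlap (2.15 with SE 0.36 and adjusted p = 0.000366). Pold1 (ENSMUSG00000038644, chr7:44532746-44548849, minus strand), the catalytic subunit of polymerase delta, lay at 22.8, 9.37, 11.04, 17.3 and 11.5 CPM among the Fgfr3-WT clones, 18.6, 31.7, 30.2, 23.9 and 35.00 CPM among the P28 clones and 16.1, 19.4, 27.00 and 35.2 CPM among the P4M clones. It overlapped Fgfr3-WT in both cKO groups and had the highest adjusted p of the 8 (0.86 with SE 0.26 and adjusted p = 0.014). In the P28 clones alone Pold1 was called (0.95 with SE 0.28 and adjusted p = 0.0173), and that call was lost without P28 replicates 4 and 5. In the P4M clones alone its value lay at the threshold (0.76 with SE 0.30 and adjusted p = 0.05) and passed in 9 of 23 alternative settings, DESeq2 among them, and the test between P4M and P28 gave -0.19 with SE 0.30 and adjusted p = 0.733. The other 5 genes, for polymerase alpha (Pola1 at 1.26 and Pola2 at 0.76), primase (Prim1 at 1.12 and Prim2 at 1.05) and the second subunit of polymerase delta (Pold2 at 0.68), were called with log2 fold changes between 0.68 and 1.26, and all 5 estimates were below those of Pole and Pole2.

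By edgeR, 0 of 4 accessory subunits of the same polymerases were called higher. Pole3 and Pole4, histone-fold subunits of polymerase epsilon, had log2 fold changes of 0.27 with SE 0.20 and adjusted p = 0.286 and 0.03 with SE 0.15 and adjusted p = 0.887. Pole3 was called higher by limma (adjusted p = 0.0435) and in no other setting. Pold3, a subunit of polymerase delta, had -0.38 with SE 0.20 and adjusted p = 0.136. Pold4, its small subunit, was called lower (-0.42 with SE 0.15 and adjusted p = 0.0379), and 9 of 23 alternative settings lost that call.

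Of the clamp and clamp loader genes, 5 of 6 were called higher, with a median log2 fold change of 1.23. Rfc3 (ENSMUSG00000033970, chr5:151642756-151651242, minus strand), a small subunit of the clamp loader RFC, lay at 8.98, 7.72, 9.14, 9.01 and 8.58 CPM among the Fgfr3-WT clones, 18.02, 19.3, 19.7, 21.5 and 28.3 CPM among the P28 clones and 18.96, 23.1, 31.01 and 27.2 CPM among the P4M clones. Its Fgfr3-WT clones kept within 7.72 to 9.14 CPM, and no cKO clone came near that range (log2 fold change 1.41 with SE 0.15 and adjusted p = 1.72e-05). Rfc5 (ENSMUSG00000029363, chr5:117378103-117389047, minus strand), another small subunit, lay at 7.35, 5.96, 6.19, 10.04 and 6.37 CPM among the Fgfr3-WT clones, 18.6, 23.3, 22.4, 37.7 and 47.3 CPM among the P28 clones and 23.5, 26.02, 42.2 and 38.3 CPM among the P4M clones, without overlap (2.12 with SE 0.26 and adjusted p = 4.75e-05). A processed pseudogene of Rfc5, Gm12870, aligned at 96.2% identity and had 1.83% of its counts. Rfc1 (ENSMUSG00000029191, chr5:65261850-65335670, minus strand), the large subunit, lay at 75.6, 54.3, 57.2, 52.8 and 46.1 CPM among the Fgfr3-WT clones, 58.99, 58.1, 64.3, 69.8 and 82.98 CPM among the P28 clones and 58.9, 69.7, 72.96 and 71.1 CPM among the P4M clones. It overlapped in all 3 groups and was not called (0.24 with SE 0.13 and adjusted p = 0.145), except by edgeR without Fgfr3-WT replicate 1, where the adjusted p was 0.0301. Rfc4 was called with 1.37 with SE 0.24 and adjusted p = 0.000518 and Rfc2 with 0.60 with SE 0.17 and adjusted p = 0.00932. In the P4M clones alone Rfc2 was not called (0.47 with SE 0.20 and adjusted p = 0.0649), although it passed in 4 of 23 alternative settings.

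Pcna, the clamp itself, lay at 44.5, 56.7, 56.7, 81.7 and 78.97 CPM among the Fgfr3-WT clones, 70.8, 113, 100.1, 140.2 and 198 CPM among the P28 clones and 125, 145, 175 and 144 CPM among the P4M clones. Its log2 fold change was 1.09 with SE 0.23 and adjusted p = 0.00166, and the highest Fgfr3-WT clone exceeded the lowest P28 clone. The pseudogene Pcna-ps2, at 99.2% identity, had 0.24% of the counts of Pcna.

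Among the 3 subunits of the single-strand binding protein RPA, the 2 smaller subunits were called higher and the largest was not called. Rpa2 (ENSMUSG00000028884, chr4:132768332-132778752, plus strand) lay at 8.49, 8.68, 14.9, 16.3 and 10.8 CPM among the Fgfr3-WT clones, 19.2, 25.8, 22.3, 33.96 and 41.1 CPM among the P28 clones and 23.3, 24.00, 35.3 and 31.3 CPM among the P4M clones, without overlap (1.27 with SE 0.23 and adjusted p = 0.000624). Rpa3 (ENSMUSG00000012483, chr6:8255936-8259173, minus strand) lay at 10.4, 6.35, 11.6, 6.34 and 8.50 CPM among the Fgfr3-WT clones, 13.95, 14.8, 12.1, 15.8 and 16.1 CPM among the P28 clones and 15.1, 14.04, 15.2 and 12.6 CPM among the P4M clones, without overlap (0.73 with SE 0.17 and adjusted p = 0.003). Rpa1 (ENSMUSG00000000751, chr11:75298166-75348324, minus strand) lay at 80.8, 154, 70.2, 114 and 169 CPM among the Fgfr3-WT clones, 129.8, 147, 153, 185 and 191 CPM among the P28 clones and 91.97, 91.8, 116 and 112 CPM among the P4M clones. The Rpa1 values of both cKO groups overlapped those of Fgfr3-WT, while every P4M clone lay below every P28 clone. Against Fgfr3-WT, with the 2 cKO groups averaged, Rpa1 had a log2 fold change of 0.13 with SE 0.20 and adjusted p = 0.608. Its estimate was 0.46 for P28 and -0.19 for P4M, with adjusted p of 0.124 and 0.537. In P28 it was called higher by limma (adjusted p = 0.0246) and without Fgfr3-WT replicate 5 (edgeR, adjusted p = 0.0379). Of all genes, limma called 29.6% higher and 11.2% lower in P28. In the per-length unit Rpa1 stayed above Rpa2 in every clone, and the ratio of Rpa2 to Rpa1 was 0.0774 to 0.276 in Fgfr3-WT, 0.206 to 0.297 in P28 and 0.340 to 0.418 in P4M.

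Both genes for the joining of Okazaki fragments rose. Lig1 (ENSMUSG00000056394, chr7:13277283-13311433, plus strand), the ligase that seals them, lay at 11.7, 8.64, 6.39, 15.01 and 11.1 CPM among the Fgfr3-WT clones, 23.1, 39.9, 40.9, 28.1 and 41.97 CPM among the P28 clones and 18.4, 24.4, 32.02 and 34.4 CPM among the P4M clones. All cKO clones lay above all Fgfr3-WT clones (1.54 with SE 0.24 and adjusted p = 0.000201). Fen1 (ENSMUSG00000024742, chr19:10199132-10204169, minus strand), the nuclease that trims the flap, lay at 12.9, 8.56, 10.1, 20.1 and 14.6 CPM among the Fgfr3-WT clones, 15.1, 23.9, 23.6, 39.7 and 43.4 CPM among the P28 clones and 23.6, 23.1, 29.3 and 38.1 CPM among the P4M clones, and Fgfr3-WT replicate 4 lay above the lowest P28 clone (1.12 with SE 0.28 and adjusted p = 0.00457). Of the exon bases of Fen1, 84.2% overlap genes on the other strand. The ligases Lig3 and Lig4, which serve repair, were not called, with log2 fold changes of 0.22 with SE 0.12 and adjusted p = 0.145 and -0.36 with SE 0.16 and adjusted p = 0.0715. Lig4 was called lower without Fgfr3-WT replicate 5 and without P4M replicate 3.

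Of the 5 genes for deoxynucleotide supply, 4 were called higher, with a median log2 fold change of 1.52. Rrm1 (ENSMUSG00000030978, chr7:102441695-102469771, plus strand), the large subunit of ribonucleotide reductase, which makes deoxynucleotides from ribonucleotides, lay at 19.4, 26.1, 19.3, 38.3 and 30.1 CPM among the Fgfr3-WT clones, 81.03, 117, 106, 100.3 and 125 CPM among the P28 clones and 65.1, 81.6, 102 and 82.6 CPM among the P4M clones. Its log2 fold change of 1.81 with SE 0.19 and adjusted p = 1.49e-05 came with the lowest adjusted p of the 46 genes. The cKO and Fgfr3-WT clones did not overlap. Dut (ENSMUSG00000027203, chr2:125247190-125258608, plus strand), which removes dUTP, lay at 18.4, 20.5, 13.2, 18.7 and 14.6 CPM among the Fgfr3-WT clones, 20.9, 36.2, 26.97, 25.9 and 40.9 CPM among the P28 clones and 41.1, 31.8, 44.6 and 44.3 CPM among the P4M clones, and the lowest cKO clone was just above the highest Fgfr3-WT clone (1.03 with SE 0.18 and adjusted p = 0.000425). Tk1, the cytosolic thymidine kinase, was called with 3.08 with SE 0.58 and adjusted p = 0.000843, and Tyms, thymidylate synthase, with 1.36 with SE 0.26 and adjusted p = 0.000776.

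Rrm2 (ENSMUSG00000020649, chr12:24708241-24714146, plus strand), the small subunit of the S-phase form of ribonucleotide reductase, was not called. It lay at 13.3, 14.3, 12.1, 54.1 and 48.7 CPM among the Fgfr3-WT clones, 19.8, 27.1, 38.9, 113 and 205 CPM among the P28 clones and 59.5, 62.6, 81.1 and 130.2 CPM among the P4M clones. The Fgfr3-WT clones split into 3 near 13 CPM and 2 near 50 CPM, and the P28 clones ran from 19.8 to 205 CPM. The log2 fold change of 1.52 with SE 0.61 and adjusted p = 0.0524 lay above the median of the 46 genes and missed the threshold, with a standard error of 0.61 compared with 0.19 for Rrm1. It passed in 9 of 23 alternative settings, among them DESeq2, limma and the fit without Fgfr3-WT replicate 4. Without P28 replicates 4 and 5, whose Prrx1 was low, the log2 fold change of Rrm2 in the P28 clones was -0.016 in place of 1.50, with adjusted p = 0.988 and 0.0866 respectively.

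The paralogs that serve resting cells and mitochondria went the other way. Rrm2b, the small subunit induced by p53, was called lower, with 51.4, 32.4, 31.3, 17.6 and 22.9 CPM among the Fgfr3-WT clones, 18.8, 22.8, 17.2, 11.1 and 11.3 CPM among the P28 clones and 16.5, 18.02, 25.4 and 16.4 CPM among the P4M clones (log2 fold change -0.82 with SE 0.25 and adjusted p = 0.0138). That call was lost in 1 of 23 alternative settings. Tk2, the mitochondrial thymidine kinase, was called lower too (-1.03 with SE 0.15 and adjusted p = 0.000134). In TPM, the ratio of Rrm2 to Rrm2b was 0.547, 1.005, 0.814, 5.45 and 4.21 in the Fgfr3-WT clones, 2.21, 2.34, 4.64, 22.2 and 36.3 in the P28 clones and 7.05, 6.64, 6.96 and 15.5 in the P4M clones. The 2 Fgfr3-WT clones with high Rrm2 thus lay inside the range of the P28 clones. The ratio of Tk1 to Tk2 was at most 0.763 in Fgfr3-WT and at least 1.32 in every cKO clone.

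**Figure D4:**
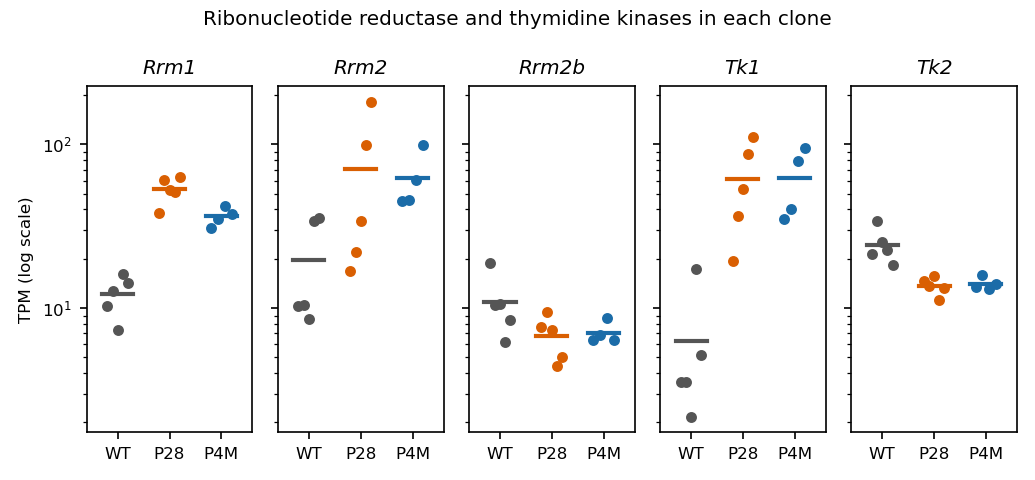
Each panel is a gene of ribonucleotide reductase or a thymidine kinase, each point a clone and each line the group mean, in TPM on a log scale, for Fgfr3-WT (WT) and the P28 and P4M Fgfr3-p53 cKO clones. Rrm1 separates the cKO clones from Fgfr3-WT, Rrm2 does not, and Rrm2b and Tk2 lie lower in the cKO clones on average.

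The promoters of the 2 reductase subunits are shown because Rrm1 was called with the lowest adjusted p and Rrm2 was not called. They lie at chr7:102441445-102441694, plus strand, and at chr12:24708004-24708253, plus strand.
Rrm1: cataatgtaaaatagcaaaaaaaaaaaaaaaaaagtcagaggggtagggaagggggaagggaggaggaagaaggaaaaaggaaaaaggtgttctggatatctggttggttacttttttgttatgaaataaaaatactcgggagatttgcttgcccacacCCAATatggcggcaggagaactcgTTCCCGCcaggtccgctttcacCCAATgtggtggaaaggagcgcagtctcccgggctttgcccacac
Rrm2: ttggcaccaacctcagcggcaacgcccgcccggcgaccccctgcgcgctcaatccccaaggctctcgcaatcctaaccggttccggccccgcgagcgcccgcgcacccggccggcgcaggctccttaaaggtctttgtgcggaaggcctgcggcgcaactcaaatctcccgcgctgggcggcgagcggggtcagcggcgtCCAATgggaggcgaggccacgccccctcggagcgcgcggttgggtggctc
Rrm1 held an E2F core at 67 bases and CCAAT boxes at 91 and 45 bases. Rrm2 held a CCAAT box at 50 bases and none of the E2F core letters in this window.

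Uhrf1 (ENSMUSG00000001228, chr17:56303321-56323486, plus strand), which brings the maintenance DNA methyltransferase to newly copied DNA, had the largest fold change of the 46 genes. It lay at 1.89, 1.53, 0.889, 11.8 and 6.64 CPM among the Fgfr3-WT clones, 23.1, 43.9, 56.4, 78.9 and 107 CPM among the P28 clones and 44.8, 66.97, 81.6 and 114 CPM among the P4M clones, and its log2 fold change was 3.92 with SE 0.66 and adjusted p = 0.000383. The Fgfr3-WT clones spread from 0.889 to 11.8 CPM, with replicate 4 highest, and the lowest cKO clone lay at 23.1 CPM. A pseudogene, Gm5648, aligned to Uhrf1 at 98.3% identity and had 2.16% of its counts.

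**Figure D5:**
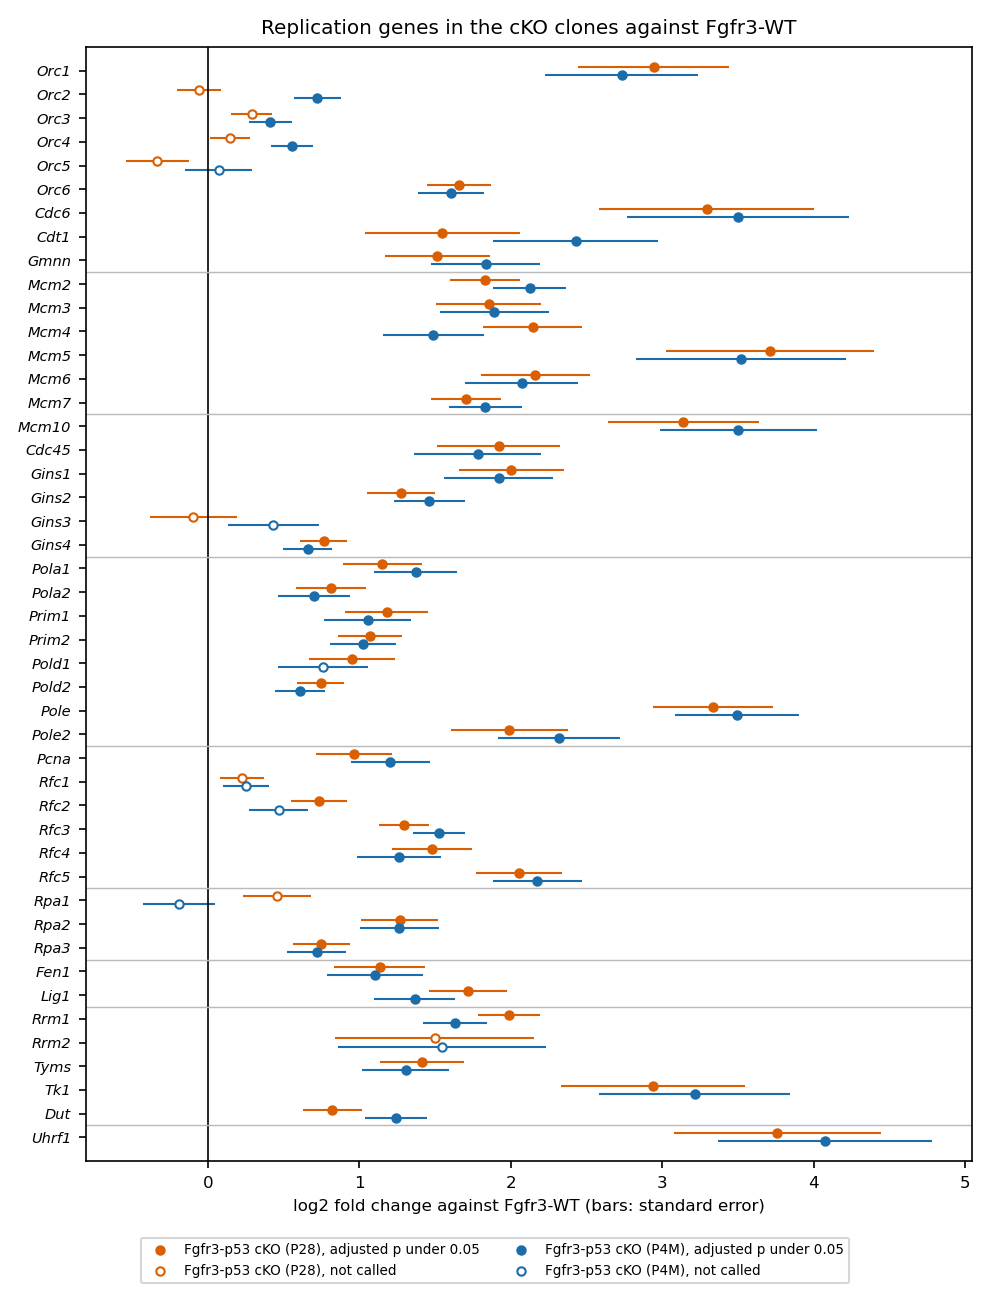
Each row is a replication gene by role; points are log2 fold changes of the P28 (orange) and P4M (blue) Fgfr3-p53 cKO clones against the same 5 Fgfr3-WT clones, bars are standard errors and open points were not called at an adjusted p of 0.05. Points of the 2 groups lie close together for most genes, and Orc2 is the gene whose P4M and P28 clones differed by the test between them.

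Across the 46 genes, promoters were found for 38 in the RefSeq table, which is not complete. Over the whole window of 300 bases, 250 before the start site and 50 after it, 23 of these 38 genes (60.5%) held an E2F core in at least 1 promoter. The share was 16.2% of the 11413 genes tested that had a promoter, and 8.1% of all 32851 promoters. Of the 33 genes called higher, 21 held the core, and of the 5 not called, Gins3 and Rfc1 did. The CCAAT box was held by 24 of the 38 genes (63.2%) and by 43.0% of the genes tested, and the CHR by 7 (18.4%) and by 16.5%.

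Few of these genes were called between the P4M and P28 clones. In edgeR's test between the 2 cKO groups, Orc2 was called higher in the P4M clones (0.78 with SE 0.15 and adjusted p = 0.0127) and 0 of the 46 were called lower, while 3.34% of all genes were called higher and 3.88% lower. The median difference was 0.03 on the log2 scale over the 46 genes and -0.01 over all genes tested, and the former was 0.40 without P28 replicates 4 and 5, where Orc2 was again the one member called. Of all tested, 580 genes were called higher and 674 lower, and both directions together gave 480 to 3051 over the alternatives. At an unadjusted p under 0.05, 2 genes were higher and 1 lower. Orc4 (0.41 with SE 0.14 and adjusted p = 0.0875) and Rpa1 (-0.65 with SE 0.24 and adjusted p = 0.111) were not called, although DESeq2 and the fit without Fgfr3-WT replicate 5 called Orc4, and the fit of the 2 cKO groups alone called both. The call of Orc2 held in each fit that left out 1 clone. A difference that misses the threshold does not show that the 2 groups are alike: the standard error was 0.65 for Mcm5 and 0.64 for Uhrf1 in this comparison.

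Within a group, the same clones were often the highest or the lowest in these genes. P28 replicate 1 had the lowest value of its group for 39 of the 46 genes, against 19.1% of all genes, and P28 replicate 5 had the highest for 45, against 24.7%. P4M replicate 1 was lowest for 35 genes, against 18.3%, and Fgfr3-WT replicate 4 was highest for 30, against 20.2%. The median difference of the 46 genes from the Fgfr3-WT mean was 0.76, 1.23, 1.34, 1.64 and 2.03 on the log2 scale in the P28 clones and 1.15, 1.36, 1.76 and 1.61 in the P4M clones. In the Fgfr3-WT clones it was -0.14, -0.26, -0.19, 0.49 and -0.01. Mki67, a proliferation marker that is no member, lay at 0.879, 2.41, 0.849, 33.4 and 5.73 CPM in the Fgfr3-WT clones, 49.1, 103, 136, 105 and 142 CPM in P28 and 54.8, 60.8, 147 and 172 CPM in P4M. Mki67 was thus highest in replicate 4 among the Fgfr3-WT clones, and lowest in replicate 1 among the P28 and among the P4M clones, as most replication genes were, and the part of cycling cells in the differences was not tested. The 46 genes summed to 574 to 728 TPM in Fgfr3-WT, 1106 to 2623 TPM in P28 and 1314 to 1855 TPM in P4M.

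Most calls remained without the clones that stood apart, and the count in P28 fell. Leaving out P28 replicates 4 and 5 together, 39 of the 46 genes were called higher in both cKO groups, 31 in P28 and 41 in P4M, with 0 lower each time, and the median in P28 fell to 1.04. Of all genes tested, 20.3%, 13.8% and 22.0% were called higher in those fits. The genes lost in P28 were Cdt1, Fen1, Pcna, Pola2, Pold1, Rfc2 and Rpa3. Leaving out Fgfr3-WT replicate 4, 39 were called higher in both cKO groups and 0 lower, against 21.3% higher and 23.5% lower of all genes.

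Other genes around the fork moved in the same direction in most cases. Of 39 other replication factors, 24 were called higher and 2 lower in the cKO clones, with a median log2 fold change of 1.16. The lowest adjusted p among those that rose was that of Recql4, a helicase of origin firing (3.21 with SE 0.43 and adjusted p = 7.67e-05), and those that fell were Pold4 and the histone chaperone Asf1a (-0.54 with SE 0.20 and adjusted p = 0.0364), whose call was lost in 8 of 23 alternative settings. Of the paralogs of the MCM subunits, Mcm8 was called higher (1.73 with SE 0.24 and adjusted p = 9.61e-05) and Mcm9 was not called (-0.24 with SE 0.17 and adjusted p = 0.25). Of 35 other genes of nucleotide synthesis, 18 were called higher and 6 lower, with a median of 0.42. Gmps, the last step to GMP, had the lowest adjusted p of those that rose (0.83 with SE 0.09 and adjusted p = 1.92e-05) and Tk2 of those that fell, while the log2 fold changes of the list ran from -1.41 to 2.67. All 12 genes of the G2/M list rose, with a median of 3.72, and Ccna2, cyclin A2, had the lowest adjusted p (3.77 with SE 0.53 and adjusted p = 0.00011).

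Genes for other kinds of DNA synthesis had list medians below 0 in the cKO clones. The median log2 fold change was -0.22 for mitochondrial DNA replication and -0.33 for translesion and repair polymerases. Of 8 genes for mitochondrial DNA replication, 0 were called higher and 3 lower, which were Ssbp1, the mitochondrial single-strand binding protein (-0.60 with SE 0.10 and adjusted p = 0.000335), Polg, the mitochondrial polymerase (-0.43 with SE 0.09 and adjusted p = 0.00162, but -0.067 and adjusted p = 0.604 in limma on TPM), and Polrmt, the mitochondrial RNA polymerase (-0.65 with SE 0.16 and adjusted p = 0.00453). Of 11 translesion and repair polymerase genes, 3 were called higher and 6 lower. Those that rose were Mad2l2 (1.32), Polq (2.83) and Polh (1.12), and Polm had the lowest adjusted p of those that fell (-1.45 with SE 0.19 and adjusted p = 5.80e-05). These lists are read against the same background of 23.1% higher and 25.7% lower, and whether their counts differ from it was not tested.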

How the data were processed

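The authors deposited whole-number read counts per gene for the 14 libraries (per the labels FastQC, TopHat, Bowtie2, HTSeq and DESeq2 on mm10, without normalization), and a TPM table. TPM did not follow the counts by a fixed factor for each gene. Gins2 had means of 16.3, 39.5 and 44.9 CPM and of 6.74, 35.7 and 23.0 TPM in Fgfr3-WT, P28 and P4M. The cause was not tested. The libraries were made by SMART-Seq v4 and Nextera XT and carry no molecular identifiers, so the floor of 3 counts for a count of 0 covers counting error only.

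Counts were tested in R 4.3.3 with edgeR 4.0.16: filterByExpr over the 3 groups left 17358 of 30503 genes, libraries were scaled by TMM, and a robust quasi-likelihood fit to all 14 clones gave 4 comparisons, adjusted by Benjamini-Hochberg over all genes at 0.05. No batch term could be fitted. Steps were tested on simulated data. Alternatives were other scalings, filters and fits, DESeq2 1.42.0, limma 3.58.1 on log2(TPM + 1) and leaving out each clone.

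The 46 genes and the other lists were chosen with earlier results of these data known. Per-clone values were printed for the 2 genes of each role with the lowest adjusted p and for the one with the highest, and of the other lists the gene with the lowest adjusted p in each direction and the paralogs of members; further genes were named after their values were seen. Gene positions are from GENCODE M21 (mm10). Copies were transcripts of other genes aligned by BLAST 2.17.0 over at least 400 bases at 95% identity. Promoters are from RefSeq (GRCm38.p6), whose start sites can differ from the GENCODE gene starts. Tables of depth-normalized counts, rlog values and FPKM were not used.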

Additional observations from a re-analysis of the deposited data

Results flagged for a closer look

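Each of the 46 genes was checked in each of the 3 groups for a clone far from the rest of its group, by the gap to the nearest clone as a share of the group's range. Of 138 such checks 4 were positive, and chance gives about 1 in 20. Mcm7 was low in P28 replicate 1, at 63.9 CPM where the other P28 clones had 110.8 to 137 CPM. Orc5 was high in P28 replicate 5, at 16.2 CPM where the others had 11.04 to 12.2 CPM. Pola2 was high in P4M replicate 4, at 29.98 CPM where the others had 18.4 to 19.03 CPM, and so was Pold2 in the same clone, at 36.7 CPM where the others had 26.9 to 28.3 CPM.

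Orc2 stood out by a difference between the 2 cKO groups. It was higher in the P4M than in the P28 clones by 0.78 on the log2 scale (edgeR, adjusted p = 0.0127), in each fit that left out 1 clone and in DESeq2 and limma. The age of the mice and the passage range differ between the 2 groups, and their parts in the difference cannot be told apart.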

How the results depend on the processing

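In the 3 comparisons with Fgfr3-WT, 37 to 42 of the 46 genes were called higher in each fit that left out 1 clone. In those fits 16.1% to 23.9% of all genes were called higher and 17.5% to 26.4% lower. Of the 46 genes, 0 were called lower in any setting of these comparisons. Over all alternatives tried, 363 summary values stayed within the limits set for them and 20 moved. Of the single-gene values 2090 kept direction and call, 43 gained a call, 58 lost one and 14 turned direction. With a minimum log2 fold change of 1, 4723 genes of all tested were called with the 2 cKO groups averaged, 4040 in P28 and 5149 in P4M. Between P4M and P28, leaving out 1 clone gave 480 to 2132 called genes of all tested and 1 to 2 members called higher. The fit of these 2 groups alone gave 3051 genes, 2 members higher and 1 lower, DESeq2 gave 2814 genes and 2 members higher, and the minimum log2 fold change of 1 gave 0 members higher. Without P28 replicates 4 and 5, a choice made after seeing the data, the members' median log2 fold change against Fgfr3-WT was 1.04 in P28, and the median difference of P4M from P28 was 0.40.

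Direction turned for 6 genes, all but Rrm2 with estimates near 0. In both cKO groups against Fgfr3-WT, Orc5 was 0.0849 in limma and ranged from -0.252 to 0.0117 when 1 clone was left out. Rpa1 ranged from -0.0088 to 0.297 and Pole4 from -0.0336 to 0.0896 over the same fits, and Mcm9 was 0.0054 in limma. Without P28 replicates 4 and 5, Pole4 was -0.101. In P28 alone, Orc2 was 0.0426 without scaling and 0.296 in limma, and ranged from -0.222 to 0.0162 when 1 clone was left out. Rrm2 was -0.0158 in P28 without P28 replicates 4 and 5. The cause was not tested. Restricting the motif search to the 250 bases before the start site left the E2F core in 16 of 38 genes (42.1%). In that window 13.6% of the genes tested that had a promoter held it. Where a filter required 10 counts in every clone, Orc1 and Cdc6 were not tested. No paired analysis was possible because the labels give no replicate numbers, and the numbers used here only name the clones.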
